A study of Mus musculus with 2 samples.

Results

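Vcam1, Icam1, Icam2, Sele, Selp and Madcam1 encode 6 adhesion molecules by which vessel walls catch passing leukocytes. They were taken by name, not by a limit on a measured value, from 27933 gene symbols in the count matrices, and all 6 were detected. The choice was made with earlier results of these data known. Their RNA was followed by single-cell sequencing through the vessels and fibroblasts of the mandibular lymph nodes of mice, nodes that receive lymph from the head. The sham group had a sham operation, and the SAH group had subarachnoid haemorrhage, bleeding around the brain modelled by an infusion of autologous blood. Nodes were taken 24 h later and pooled from 20 mice per group into 1 library per group, so differences have no replicate check, nothing was tested, and what is compared are 2 libraries and not the conditions. Cells with CD45 on their surface were removed, and cells that bound antibodies to CD31 or podoplanin were collected on beads. Strain, sex and age of the mice are not given in the sources used here.

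Leukocytes leave the blood in steps. The selectins, encoded by Sele and Selp, let them roll along the wall, and the immunoglobulin-like molecules ICAM-1, ICAM-2 and VCAM-1 then hold them through integrins. MAdCAM-1 binds the gut-homing integrin and can also carry sugars that L-selectin recognises. In lymph nodes most lymphocytes enter through high endothelial venules, whose cells use Fut7 and Chst4 to fucosylate and sulfate L-selectin ligands, while lymphatic endothelium lines the sinuses that carry lymph.

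The sham library held 72860197 and the SAH library 78497486 unique molecular identifiers (UMIs), each marking 1 captured RNA molecule. After filtering, 11157 sham and 11454 SAH cells remained, with medians of 5039 and 5747 UMIs, and 76 barcode sequences occurred in both libraries. Blood endothelial cells (BEC) had a Pecam1 UMI, no Prox1 UMI and a UMI of Ly6c1 or Flt1, or of Fut7 or Chst4. They numbered 6348 (sham) and 6503 (SAH), of which 1082 and 1245 had a UMI of Fut7 or Chst4. Lymphatic endothelial cells (LEC) had a Prox1 UMI and numbered 2364 and 2562. By the most abundant of 3 transcripts, 1170 and 1157 of them were of Ackr4 type, 298 and 369 of Coch type and 146 and 359 of Marco type, and 750 and 677 were not split. Fibroblastic stroma, with at least 3 UMIs of Dcn and Col3a1 and none of Pecam1 or Prox1, numbered 1532 and 1631 cells. The labels call the sample lymphatic endothelium, yet by these gates BEC made up 56.9% of the sham and 56.8% of the SAH cells. The summed marker lists did not all follow the gates. A list of 7 LEC genes summed to 3079 and 4490.4 CPM (UMIs of a gene scaled to a fixed total of all UMIs) in LEC, but to 8384 and 13035 CPM in Fut7/Chst4-positive BEC and 10609 and 15845 CPM in stroma, where nearly all of it was the chemokine Ccl21a. Mmrn1, a gene of that list that no gate used, stood at 754 and 939.6 CPM in LEC against 7.66 and 20.3 CPM in Fut7/Chst4-positive BEC and 6.30 and 14.2 CPM in stroma. Glycam1, an L-selectin ligand of high endothelial venules that no gate used, stood at 37081 and 36239 CPM in Fut7/Chst4-positive BEC and 683 and 694 CPM in the other BEC, but also at 23104 and 17651 CPM in Coch-type LEC. Gates by single transcripts do not separate cells fully: 870 of 2364 sham and 1489 of 2562 SAH LEC also had a UMI of Flt1 or Ly6c1. This share was larger in the SAH library, and its part in the LEC folds below was not tested.

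Levels below are in CPM of the UMIs summed over a population. Brackets hold exact 95% intervals, which cover counting error only. A fold is the SAH level over the sham level, and a gene is counted as higher or lower where the libraries lay at least 1.5-fold apart on at least 20 UMIs. Fewer RNA molecules per cell and fewer cells that make them cannot be told apart in such sums, so shares of cells with a UMI are added after random thinning of every cell to 2000 UMIs.

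All 6 genes are annotated as protein-coding in GENCODE M21 on the mouse build GRCm38. Sele (ENSMUSG00000026582, chr1:164048234-164057677) and Selp (ENSMUSG00000026580, chr1:164115264-164150026) neighbour each other on the plus strand of chromosome 1. Icam1 (ENSMUSG00000037405) lies at chr9:21015985-21028817 and Madcam1 (ENSMUSG00000020310) at chr10:79664559-79668537, both on the plus strand. Vcam1 (ENSMUSG00000027962, chr3:116109949-116129688) and Icam2 (ENSMUSG00000001029, chr11:106377656-106388075) lie on the minus strand. Antisense genes overlap Vcam1, Icam1 and Selp. Whether counting used the strand, and so kept reads of these genes apart from those of their antisense partners, is not given in the sources used here. The 250 bases before the RefSeq start (GRCm38.p6, plus strand) are shown for the 4 genes with an entry. They lie at chr9:21015690-21015939 for Icam1, chr1:164047984-164048233 for Sele, chr1:164115014-164115263 for Selp and chr10:79664309-79664558 for Madcam1. Capitals mark matches, on either strand, to GGANNNTCC, a core found in many NF-kB sites, to the palindrome TTCNNNGAA, and to TATAAA.
Icam1 promoter: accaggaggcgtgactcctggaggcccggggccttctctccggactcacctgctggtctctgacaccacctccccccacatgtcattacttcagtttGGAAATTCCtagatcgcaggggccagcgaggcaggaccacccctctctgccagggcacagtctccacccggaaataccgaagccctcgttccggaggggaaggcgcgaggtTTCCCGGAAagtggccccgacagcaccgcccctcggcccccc
Sele promoter: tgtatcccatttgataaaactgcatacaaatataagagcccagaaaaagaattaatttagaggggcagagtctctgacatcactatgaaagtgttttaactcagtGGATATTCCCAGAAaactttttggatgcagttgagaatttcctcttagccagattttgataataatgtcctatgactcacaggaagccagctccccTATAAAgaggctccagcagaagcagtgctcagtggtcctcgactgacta
Selp promoter: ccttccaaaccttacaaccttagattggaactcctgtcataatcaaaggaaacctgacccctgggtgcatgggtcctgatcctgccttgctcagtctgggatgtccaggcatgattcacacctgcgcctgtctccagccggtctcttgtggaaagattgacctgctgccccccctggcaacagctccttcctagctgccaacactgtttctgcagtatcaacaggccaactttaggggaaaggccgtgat
Madcam1 promoter: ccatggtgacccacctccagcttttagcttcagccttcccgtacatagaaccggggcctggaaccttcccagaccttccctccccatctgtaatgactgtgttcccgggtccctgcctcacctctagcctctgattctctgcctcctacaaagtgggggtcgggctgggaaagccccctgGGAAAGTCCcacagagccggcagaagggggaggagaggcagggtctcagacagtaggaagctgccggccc
GGANNNTCC occurred in Icam1, Sele and Madcam1, beginning 153, 145 and 70 bases before the start, and in 7.27% of 32851 promoter windows of the same length. TTCNNNGAA occurred in Icam1 at 42 and in Sele at 140 bases, the latter overlapping the first motif, and in 7.02% of windows. TATAAA occurred in Sele at 49 bases and in 12.4% of windows. The Selp window held none of these letters. A match is a description of the sequence and not a measured site.

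The first question was which cells held each transcript, and among the 7 plotted populations 5 of the 6 genes had the same highest one in both libraries. The plot of levels by population shows 3 arrangements, with the selectins and Icam1 highest in Fut7/Chst4-positive BEC, Vcam1 and Madcam1 highest in Coch-type LEC, and Icam2 spread over all endothelium. A subset within Fut7/Chst4-negative BEC that is not plotted, the Ackr1-positive cells, had higher CPM of both selectins in each library. Its intervals lay apart from those of Fut7/Chst4-positive BEC for Selp in the sham library only.

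**Figure D1:**
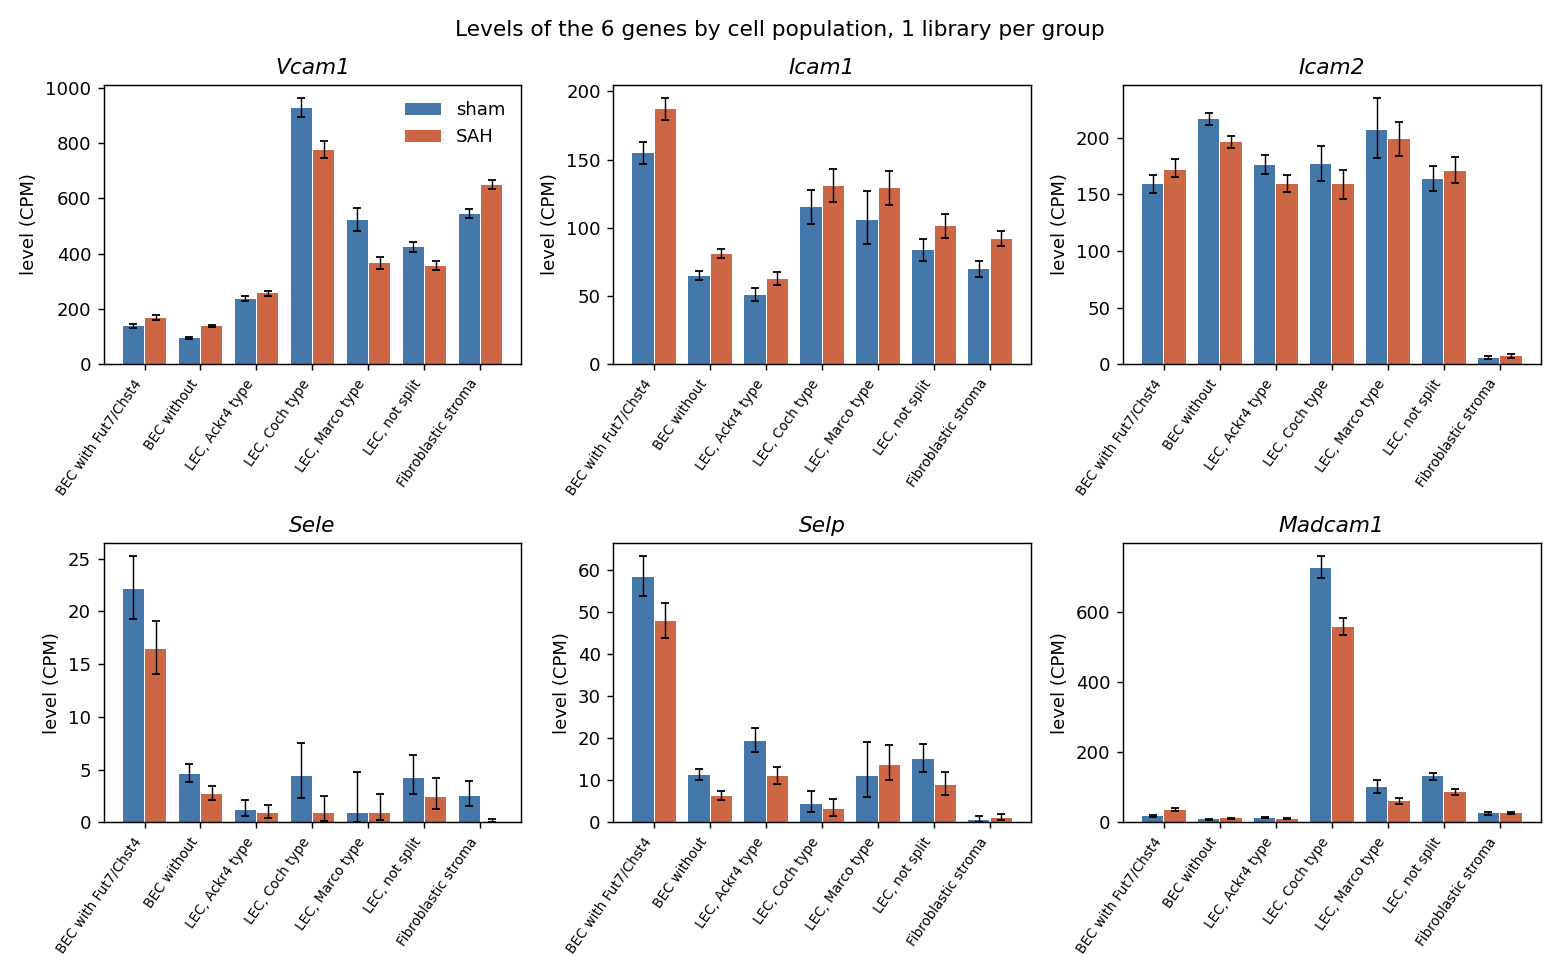
Level of each gene (CPM, vertical axis, starting at 0) in 7 cell populations (horizontal axis) of the sham (blue) and SAH (red) library. Bars are levels of summed UMIs and error bars exact 95% intervals for counting error only. Of these populations, Sele and Selp stand highest in Fut7/Chst4-positive BEC (22.1 and 58.3 CPM in the sham library), Vcam1 and Madcam1 in Coch-type LEC (927 and 728 CPM), and Icam2 is 5.67 CPM in sham fibroblastic stroma.

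Selp, which encodes the selectin stored in endothelial and platelet granules, stood at 58.3 CPM in sham and 47.8 CPM in SAH Fut7/Chst4-positive BEC. In the other BEC it stood at 11.3 and 6.31 CPM, so the venular level was 5.15-fold [4.48, 5.94] higher in the sham library and 7.58-fold [6.35, 9.08] higher in the SAH library. Ackr1, a chemokine receptor of venules, marked where Selp lay among the Fut7/Chst4-negative BEC. The 397 sham and 343 SAH cells with an Ackr1 UMI held 92.6 and 50.3 CPM, and those without it 3.26 and 2.58 CPM. Sham cells with Ackr1 lay above sham Fut7/Chst4-positive BEC, while for the SAH cells the intervals of these populations overlapped ([41.1, 61.0] and [43.8, 52.1] CPM). After thinning, 13.8% and 6.92% of the Ackr1-positive cells had a Selp UMI, against 0.505% and 0.552% of the Ackr1-negative cells and 0.14% and 0.129% of fibroblastic stroma. Without thinning these shares were 23.4% and 14.6%, 1.23% and 1.04%, and 0.261% and 0.736%. Among LEC, Ackr4-type cells held 19.4 CPM in the sham library, from 180 UMIs against 120 UMIs in the SAH library, and Coch-type cells held 4.42 and 3.14 CPM. Platelets also carry Selp, and in Ackr4-type LEC a list of 4 platelet genes summed to 11.6 and 6.24 CPM, of which Pf4 made up 10.9 and 5.88 CPM, with Gp9 at 0 in both libraries. In Coch-type LEC, which held less Selp, the list summed to more, 222 and 133 CPM. All of that was Pf4, with Ppbp, Gp9 and Gp1bb at 0.

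Sele, which encodes the selectin that inflamed endothelium makes anew, followed the same places among BEC at lower counts. Among sham LEC it lay unlike Selp, at 4.42 CPM (13 UMIs) in Coch-type and 1.19 CPM (11 UMIs) in Ackr4-type cells. The SAH levels there were 0.856 CPM (3 UMIs) and 0.918 CPM (10 UMIs). Sele stood at 22.1 CPM (228 UMIs) in sham and 16.4 CPM (176 UMIs) in SAH Fut7/Chst4-positive BEC. The other BEC held 4.60 and 2.72 CPM, 4.81-fold [3.84, 6.05] and 6.04-fold [4.57, 8.06] below. Ackr1-positive cells again stood out within them, at 26.5 and 21.3 CPM against 2.42 and 1.15 CPM in Ackr1-negative cells, and their intervals overlapped those of Fut7/Chst4-positive BEC. After thinning, 3.77% of sham and 3.90% of SAH Fut7/Chst4-positive BEC had a Sele UMI, and 3.71% and 4.4% of the Ackr1-positive cells. In LEC the shares were 0.43% [0.207, 0.79] and 0.239% [0.0878, 0.52], and in fibroblastic stroma, thinned to the same depth, 0.421% [0.155, 0.914] and 0% (exact upper bound 0.238%). These intervals overlapped in each library, so Sele in LEC was not distinguishable from Sele in fibroblasts in the thinned cells. The shares without thinning were 11.3% and 8.59% in Fut7/Chst4-positive BEC (median depths 8521.5 and 8083 UMIs). They were 1.35% and 0.742% in LEC (6871.5 and 8193 UMIs) and 0.718% and 0% in stroma (4767.5 and 6336 UMIs). On all UMIs the SAH levels did lie apart, at 1.23 CPM [0.819, 1.78] in LEC and 0 CPM [0, 0.343] in stroma. The sham levels, 2.53 and 2.52 CPM, did not.

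Icam1, which encodes the inducible ligand of the leukocyte integrin LFA-1, was present everywhere and highest in Fut7/Chst4-positive BEC, at 155 CPM in the sham library and 187 CPM in the SAH library. Coch-type LEC came next at 115 and 131 CPM and Marco-type LEC at 106 and 129 CPM, and these neighbours differed by less than their counting error (1.08-fold [0.877, 1.34] and 1.01-fold [0.883, 1.15]). Fut7/Chst4-negative BEC held 64.8 and 81.1 CPM, fibroblastic stroma 69.8 and 92.1 CPM and Ackr4-type LEC 50.7 and 62.6 CPM. The leukocyte gate, of 161 sham and 77 SAH cells, held 12 Icam1 UMIs in each library, and its median depths were 2106 and 2414 UMIs.

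Icam2, which encodes a second LFA-1 ligand that resting endothelium carries, had the flattest profile of the 6 within endothelium. Its lowest level in an endothelial population of the plot was 159 CPM and its highest 217 CPM. Fut7/Chst4-negative BEC (217 CPM) and Marco-type LEC (207 CPM) led in the sham library with overlapping intervals, as they did in the SAH library at 196 and 199 CPM. Fut7/Chst4-positive BEC held less than the other BEC, 0.734-fold [0.695, 0.776] in the sham library and 0.879-fold [0.833, 0.927] in the SAH library. Fibroblastic stroma held 5.67 and 7.34 CPM, and after thinning 0.842% and 1.87% of its cells had a UMI against 32.1% of BEC in each library. Without thinning, 2.42% and 4.41% of stromal cells had one.

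Vcam1, which encodes the ligand of the integrin VLA-4, was carried by fibroblasts and lymphatic cells more than by blood vessels. Coch-type LEC held 927 CPM in the sham library and 776 CPM in the SAH library. Fibroblastic stroma followed at 544 and 649 CPM, then Marco-type LEC at 523 and 366 CPM, and the stroma and Marco-type levels were within their intervals of each other in the sham library only. Ackr4-type LEC held 237 and 256 CPM, Fut7/Chst4-positive BEC 137 and 168 CPM and the other BEC 94.3 and 138 CPM. Of all Vcam1 UMIs in kept cells, BEC held 22.8% (sham) and 24.3% (SAH), LEC 45.2% and 37.8%, and fibroblastic stroma 25.2% and 31.1%. After thinning, a Vcam1 UMI was found in 71.0% and 69.6% of Coch-type LEC and 54.1% and 60.9% of stroma, against 0 of 92 (exact upper bound 3.93%) and 2 of 60 cells of the leukocyte gate. Without thinning the shares were 94.3% in Coch-type LEC of each library, 73.0% and 82.0% in stroma and 2.48% and 5.19% in the leukocyte gate.

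Within fibroblastic stroma the Vcam1 level depended on the kind of fibroblast, in a split by 3 marker genes that was chosen after values had been seen. Cells with a UMI of Tnfsf11, the RANK ligand of marginal reticular cells, held 594 and 655 CPM. Of the other cells, those with a UMI of Ccl19, a chemokine of T-zone reticular cells, held 647 and 693 CPM. Cells with neither but with Pi16, a marker of adventitial fibroblasts, numbered only 62 and 36 and held 34.8 and 29.9 CPM. The same split gave Madcam1 at 39.7 and 34.9 CPM in Ccl19-positive cells and 13.1 and 7.75 CPM in Tnfsf11-positive cells.

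Madcam1 was the most restricted of the 6 within LEC. Coch-type cells, named for a marker of the floor of the subcapsular sinus, held 728 CPM in the sham library and 558 CPM in the SAH library. Marco-type LEC held 100.3 and 61.6 CPM and Ackr4-type LEC 13.8 and 11.1 CPM, 52.7-fold [44.1, 63.5] and 50.3-fold [41.8, 60.9] below the Coch type. Blood vessels held little in comparison, at 18.0 and 36.6 CPM in Fut7/Chst4-positive and 8.77 and 11.7 CPM in Fut7/Chst4-negative BEC, while fibroblastic stroma held 25.7 and 27.0 CPM. After thinning, 63.0% and 56.1% of Coch-type LEC had a Madcam1 UMI. The thinned shares were 1.69% and 3.81% in Fut7/Chst4-positive BEC, 0.803% and 1.46% in the other BEC and 2.60% and 3.49% in stroma, with none in 92 sham and 60 SAH cells of the leukocyte gate (exact upper bounds 3.93% and 5.96%). Without thinning the shares were 90.9% and 84.3% in Coch-type LEC, 3.97% and 7.95% in Fut7/Chst4-positive BEC, and 6.4% and 9.2% in stroma.

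Coch, the transcript that defines the type with most Madcam1, was counted beside it in each population. Coch-type LEC, which were chosen for Coch, held 2.24 Coch UMIs per Madcam1 UMI (sham) and 2.42 (SAH), and all LEC together 1.58 and 1.79. In Marco-type LEC the ratio was 0.094 and 0.246 and in unsplit LEC 0.00583 and 0.0227, so Madcam1 also lay in LEC with hardly any Coch. The ratio in Fut7/Chst4-positive BEC was 0.409 and 0.227, and 2 of 43 sham and 10 of 99 SAH cells with a Madcam1 UMI also had a Coch UMI. In the other BEC it was 1.0 and 1.18, with Coch in 24.4% and 20.4% of the Madcam1-positive cells.

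The main comparison set the SAH against the sham library. In Fut7/Chst4-positive BEC, Madcam1 was 2.03-fold higher, Vcam1 and Icam1 were higher by under 1.5-fold, and both selectins were lower by under 1.5-fold. In Fut7/Chst4-negative BEC the selectins stood furthest apart, both below their sham level. Icam1 lay above its sham level in 7 of the 7 populations of the plot of levels, although in Coch- and Marco-type LEC its interval held 1 ([0.987, 1.31] and [0.995, 1.5]). Vcam1 was higher in Fut7/Chst4-positive and Fut7/Chst4-negative BEC and in fibroblasts, and lower in Coch-type, Marco-type and unsplit LEC.

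**Figure D2:**
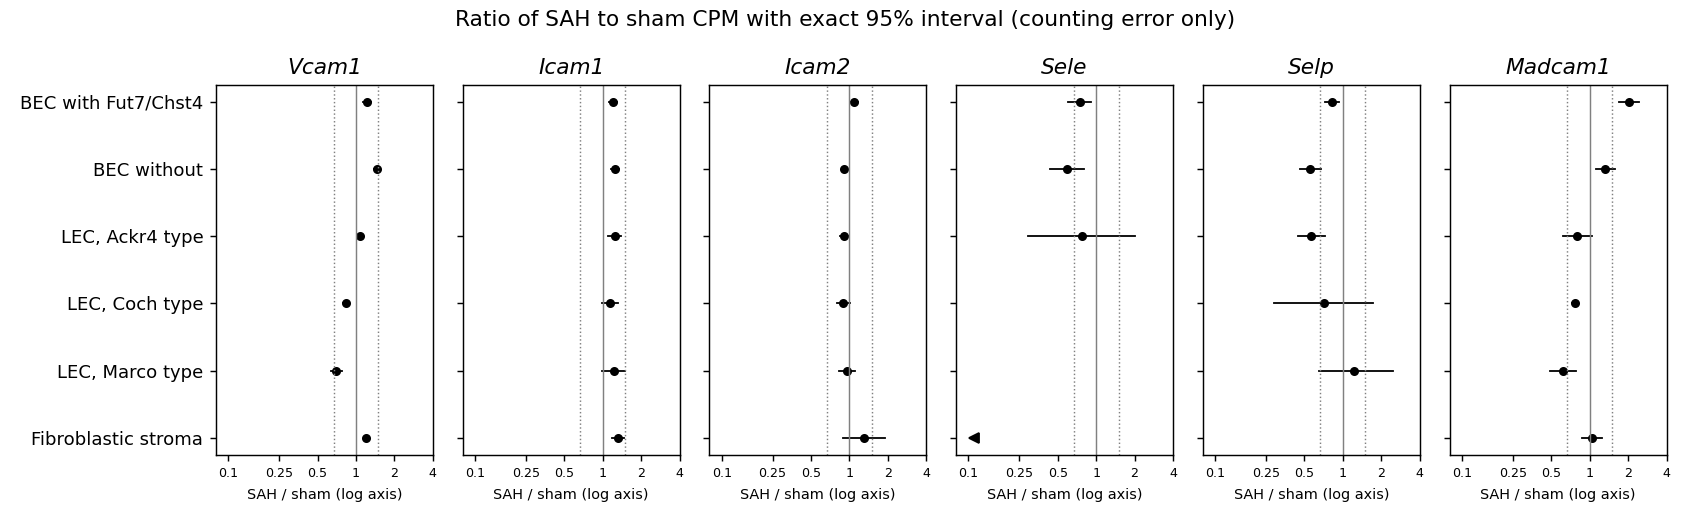
SAH level over sham level of each gene (log axis) in 6 populations. Points are folds of summed UMIs, lines exact 95% intervals for counting error only, dotted lines the 1.5-fold limits, and the triangle for Sele in stroma an upper limit from a floor of 3 UMIs; Sele in Coch- and Marco-type LEC, at under 20 UMIs, is not drawn. Icam1 lies to the right of 1 in all 6, and Selp is lowest in Fut7/Chst4-negative BEC (0.557) and Ackr4-type LEC (0.567).

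Of the 6 genes, 1 was at least 1.5-fold higher in BEC as a whole, Madcam1 (11.4 and 18.9 CPM, 1.66-fold [1.47, 1.87]), where 12.4% of all 14033 genes with enough UMIs were, and 0 were lower, where 5.71% were. The counts in Fut7/Chst4-positive BEC were 1 and 0, beside 11.8% and 6.21% of all genes. In Fut7/Chst4-negative BEC 0 were higher and 2 lower, Sele and Selp, beside 12.1% and 6.02%. In LEC 0 were higher and 2 lower, again Sele and Selp, beside 9.14% and 6.34%. In fibroblastic stroma 0 of 5 were higher and 1 lower, Sele, beside 8.49% and 10.2%. In the smaller populations the highest count was that of unsplit LEC, with 0 higher and 3 lower, Sele, Selp and Madcam1, beside 10.1% and 9.01%. The fold there was 0.565 [0.255, 1.19] for Sele, 0.598 [0.405, 0.873] for Selp and 0.664 [0.588, 0.75] for Madcam1, and it stayed past the limit under 7 of 10, 6 of 11 and 4 of 11 alternatives. Ackr1-positive Fut7/Chst4-negative BEC had 0 higher and 1 lower (12.9% and 7.94% of all genes), and Ackr1-negative ones 1 and 1 (12.3% and 6.03%). Ackr4-type LEC had 0 and 1 (8.9% and 5.35%), Coch-type LEC 0 and 0 of 5 (12.5% and 7.28%) and Marco-type LEC 0 and 1 of 5 (13.5% and 10.4%). Whether these counts set the 6 genes apart from the rest was not tested.

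Selp in Fut7/Chst4-negative BEC had 298 UMIs (11.3 CPM) in the sham library and 167 UMIs (6.31 CPM) in the SAH library, a fold of 0.557 [0.458, 0.676]. It stayed below 1 under 11 alternatives and inside the 1.5-fold limit under 2, at 0.691 with at most 5% mitochondrial UMIs and 0.686 with the split at 2 Fut7 and Chst4 UMIs. Ackr1-positive cells, at 92.6 and 50.3 CPM, gave 0.544-fold [0.426, 0.689], and Ackr1-negative cells, at 3.26 and 2.58 CPM, gave 0.793-fold [0.56, 1.12]. With the split at 2 Fut7 and Chst4 UMIs the Ackr1-positive fold was 0.766, inside the limit. Of the Selp UMIs of Ackr1-positive cells, 10 cells held 39.1% (sham) and 48.1% (SAH), and without them the fold was 0.463. Fut7/Chst4-positive BEC had a fold of 0.82 [0.728, 0.924], but 1.07 [0.906, 1.26] in those of its cells without a UMI of the fibroblast genes Dcn and Col3a1. In Ackr4-type LEC, Selp was at 0.567-fold [0.446, 0.718] of its sham level. The platelet list in these cells was also lower in the SAH library, as given above, and its part in the Selp value was not tested. Over all LEC the Selp level was 15.3 and 9.73 CPM (0.636-fold [0.531, 0.761]), but 5 of 11 alternatives put it inside the limit, among them thinning (0.855), with 1.98% and 1.83% of thinned cells holding a UMI. LEC with at least 3 UMIs of Dcn and Col3a1 gave 0.423-fold [0.302, 0.591] and those with fewer 0.753-fold [0.606, 0.933].

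Sele in Fut7/Chst4-negative BEC had 121 sham and 72 SAH UMIs (4.60 and 2.72 CPM, 0.592-fold [0.436, 0.799]), and 0.775-fold after thinning. In Fut7/Chst4-positive BEC the fold was 0.743 [0.607, 0.909], but the thinned shares did not follow it and a limit of 5% mitochondrial UMIs gave 1.03. In LEC, 47 and 28 UMIs gave 0.487-fold [0.294, 0.794], and cells with under 3 UMIs of Dcn and Col3a1 gave 0.608-fold [0.334, 1.08]. In fibroblastic stroma 11 sham cells held 20 Sele UMIs and no SAH cell held any, at least 9.04-fold lower by a floor of 3 UMIs per library. The exact upper bound on the share of the 1631 SAH cells with a UMI is 0.226%. Of the 20 UMIs, 15 lay in Tnfsf11-positive cells. At 5% mitochondrial UMIs and after thinning the upper limit of the fold, at 0.218 and 0.345, was still past 1.5-fold, but fewer than 20 UMIs were left and the gene was not counted. No fold was computed with each cell weighted equally or without the 10 cells with most UMIs.

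Icam1 was higher by a like fold in the 3 main populations. It was 90.2 CPM in sham and 112 CPM in SAH BEC (1.24-fold [1.18, 1.3]), 73.6 and 91.3 CPM in LEC (1.24-fold [1.16, 1.33]) and 69.8 and 92.1 CPM in fibroblastic stroma (1.32-fold [1.19, 1.47]). None of these passed 1.5-fold. After thinning, the share of cells with an Icam1 UMI was 24.1% in sham and 28.0% in SAH Fut7/Chst4-positive BEC, 11.1% and 13.9% in the other BEC, 12.5% and 16.7% in LEC and 10.9% and 17.7% in stroma. Over 11 alternative settings the fold stayed between 1.22 and 1.27 in BEC and between 1.2 and 1.3 in LEC. In stroma it ran more widely, from 1.23 to 1.55 over 10 alternatives, and was inside the 1.5-fold limit under 9 of them. In Ackr1-positive Fut7/Chst4-negative BEC, Icam1 stood at 121 and 119.5 CPM (0.99-fold [0.831, 1.18]). Of 11 alternatives there, 5 turned this direction, with 1.2-fold at 5% mitochondrial UMIs and 1.22-fold after thinning, when 18.3% and 24.2% of the cells had a UMI. Whether this fold differs from those of the other populations was not tested. Icam2 was near 1 in endothelium, at 200.4 and 189 CPM in BEC (0.945-fold) and 175 and 168 CPM in LEC (0.958-fold). In fibroblastic stroma, where it was rare, 45 and 79 Icam2 UMIs gave 1.29-fold [0.887, 1.91], between 1.27 and 1.91 over 10 alternatives.

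Vcam1 was 94.3 CPM in sham and 138 CPM in SAH Fut7/Chst4-negative BEC, 1.46-fold [1.39, 1.54]. In Ackr1-negative cells it was 85.0 and 131 CPM, 1.54-fold [1.46, 1.63] and past the limit, but 1.12-fold without mixed cells, 1.35-fold with cells weighted equally, 1.32-fold after thinning and 1.43-fold in a gate without Ly6c1. Ackr1-positive cells held 188 and 220.2 CPM, 1.17-fold [1.03, 1.34]. Only 7 of 11 alternatives kept that direction, with 0.897-fold without mixed cells and 0.898-fold after thinning. Fut7/Chst4-positive BEC held 137 and 168 CPM, 1.23-fold [1.14, 1.32]. Unsplit LEC lay lower in the SAH library at 0.84-fold [0.788, 0.894], while Ackr4-type LEC lay at 1.08-fold. Coch-type LEC also lay lower, at 0.837-fold [0.793, 0.883], and Marco-type LEC at 0.701-fold [0.635, 0.774]. The list of 7 fibroblast genes summed to 2275 CPM in sham and 1101 CPM in SAH Marco-type LEC and to 728 and 760.1 CPM in Coch-type LEC, and its part in these Vcam1 values was not tested. Over all LEC, Vcam1 was at 0.781-fold [0.741, 0.824] in cells with at least 3 UMIs of Dcn and Col3a1 and at 0.927-fold [0.893, 0.964] in those with fewer. Fibroblastic stroma lay at 1.19-fold [1.15, 1.24]. In the split given above, Ccl19-positive cells lay at 1.07-fold [1.02, 1.12] and Tnfsf11-positive cells at 1.1-fold [1.02, 1.19]. The Ccl19-positive cells numbered 812 (sham) and 1106 (SAH). Stromal cells with none of the 3 markers, which held less Vcam1 (231 and 273 CPM), numbered 336 and 182. The part of this make-up in the stromal fold was not tested.

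The share of BEC with fibroblast RNA also differed between the libraries. BEC with at least 3 UMIs of Dcn and Col3a1, the fibroblast genes of the stroma gate, were 480 sham cells (7.56%) and 911 SAH cells (14.0%). The same list of 7 fibroblast genes, all detected, summed to 1097 and 1936 CPM in BEC. Among the Fut7/Chst4-negative cells with such UMIs Vcam1 stood at 336 and 398 CPM, and among those with fewer at 61.1 and 64.7 CPM, so that within cells of fewer fibroblast UMIs the fold was 1.06 [0.981, 1.14] instead of 1.46. For Icam1 the same cells gave 1.27-fold. In Fut7/Chst4-positive BEC with fewer than 3 such UMIs, Vcam1 was 1.17-fold [1.08, 1.27] and Icam1 1.23-fold. Those with at least 3 went the other way for Vcam1, at 337 and 291 CPM (0.862-fold [0.743, 1.0]). For the selectins, Fut7/Chst4-negative BEC with fewer than 3 such UMIs gave 0.595-fold [0.429, 0.818] (Sele) and 0.573-fold [0.465, 0.704] (Selp). The part of fibroblast RNA in these folds was not tested.

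**Figure D3:**
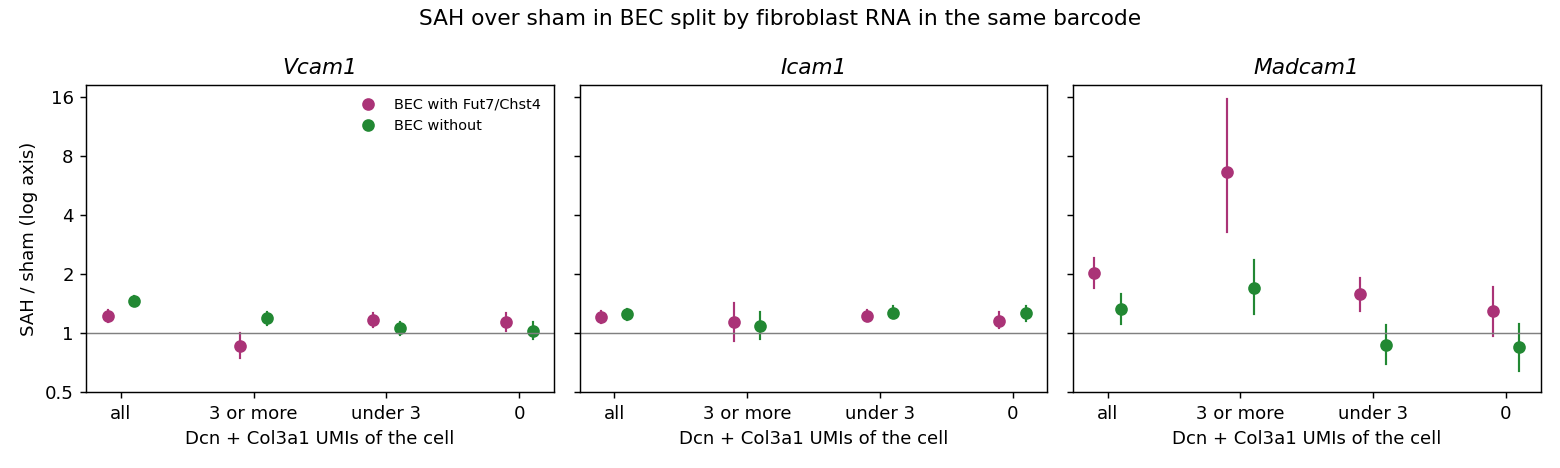
SAH level over sham level (log axis) of Vcam1, Icam1 and Madcam1 in BEC grouped by the Dcn and Col3a1 UMIs of the same cell, for Fut7/Chst4-positive (purple) and Fut7/Chst4-negative (green) cells. Points are folds and lines exact 95% intervals for counting error only. The Vcam1 fold of the Fut7/Chst4-negative cells is 1.46 in all cells and 1.06 in those with under 3 such UMIs, where that of Icam1 is 1.27.

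Madcam1 in Fut7/Chst4-positive BEC had 186 UMIs in 43 sham cells and 392 UMIs in 99 SAH cells. The levels were 18.0 and 36.6 CPM, a fold of 2.03 [1.7, 2.43]. Few cells carried it, since 10 cells held 69.4% of the sham and 46.9% of the SAH UMIs. Without the 10 cells of each library with most UMIs the fold was 3.53, and without cells that held at least 3 fibroblast UMIs or a Ptprc UMI it was 1.55. In BEC as a whole these mixed cells ended the call, with a fold of 1.22 without them, as did a limit of 5% mitochondrial UMIs (1.33). In cells with at least 3 Dcn and Col3a1 UMIs Madcam1 stood at 10.4 and 69.2 CPM (6.64-fold [3.28, 15.7]), in those with under 3 at 18.7 and 29.4 CPM (1.58-fold [1.3, 1.92]), and in those with none at 17.8 and 23.0 CPM (1.29-fold [0.97, 1.71]). The salivary genes Smr3a, Bpifa2, Epcam and Krt8 summed to 104 CPM in sham and 2254 CPM in SAH Fut7/Chst4-positive BEC, and 3 neutrophil genes to 1.55 and 143 CPM. Their part in the Madcam1 value was not tested.

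In LEC, Madcam1 went the other way, at 166 CPM in the sham library and 119.7 CPM in the SAH library (0.723-fold [0.687, 0.762]). It was 0.518-fold [0.47, 0.571] in LEC with at least 3 UMIs of Dcn and Col3a1 (198 and 102 CPM), 0.83-fold [0.78, 0.883] in those with fewer (156 and 129 CPM) and 0.925-fold [0.846, 1.01] in those with none (159.7 and 148 CPM). The first of these groups made up 18.2% of sham and 28.6% of SAH LEC. Coch-type cells lay at 0.767-fold [0.721, 0.816]. Marco-type cells lay at 0.614-fold [0.487, 0.777], and Madcam1 was the 1 of the 5 genes tested past the limit there. The fold was inside the limit under 3 of 11 alternatives, at 0.777 with cells weighted equally, 0.685 without mixed cells and 0.709 without the 10 cells of most UMIs. The Marco-type population was 146 sham and 359 SAH cells, with the fibroblast list lower in the latter as given above. In Fut7/Chst4-negative BEC Madcam1 was 1.33-fold [1.12, 1.58] higher, but 0.873-fold in cells with under 3 fibroblast UMIs.

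BEC were also grouped by how many UMIs of Fut7 and Chst4 a cell held. The groups of 0, 1, 2 to 3, 4 to 7 and at least 8 UMIs differ in depth, with a median of 4106.5 UMIs in the first and 12901 in the last group of the sham library and 4263 and 11556 in the SAH library. Icam1 stood at 64.8, 124, 160.1, 165 and 167 CPM over these groups in the sham library and 81.1, 116, 182, 217 and 218 CPM in the SAH library, so the libraries lay apart in the groups of most UMIs. Selp was low without these UMIs and above 34 CPM in every other group, at 11.3, 34.3, 68.6, 59.2 and 68.1 CPM in the sham library and 6.31, 36.4, 40.3, 56.8 and 53.5 CPM in the SAH library. Madcam1 was concentrated in the last group, which held 37.6 CPM in the sham library and 68.8 CPM in the SAH library, against 14.2 and 20.2 CPM in the group before it and at most 13.1 CPM in the rest. Icam2 ran from 217 to 157 CPM in the sham library and from 196 to 162 CPM in the SAH library.

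**Figure D4:**
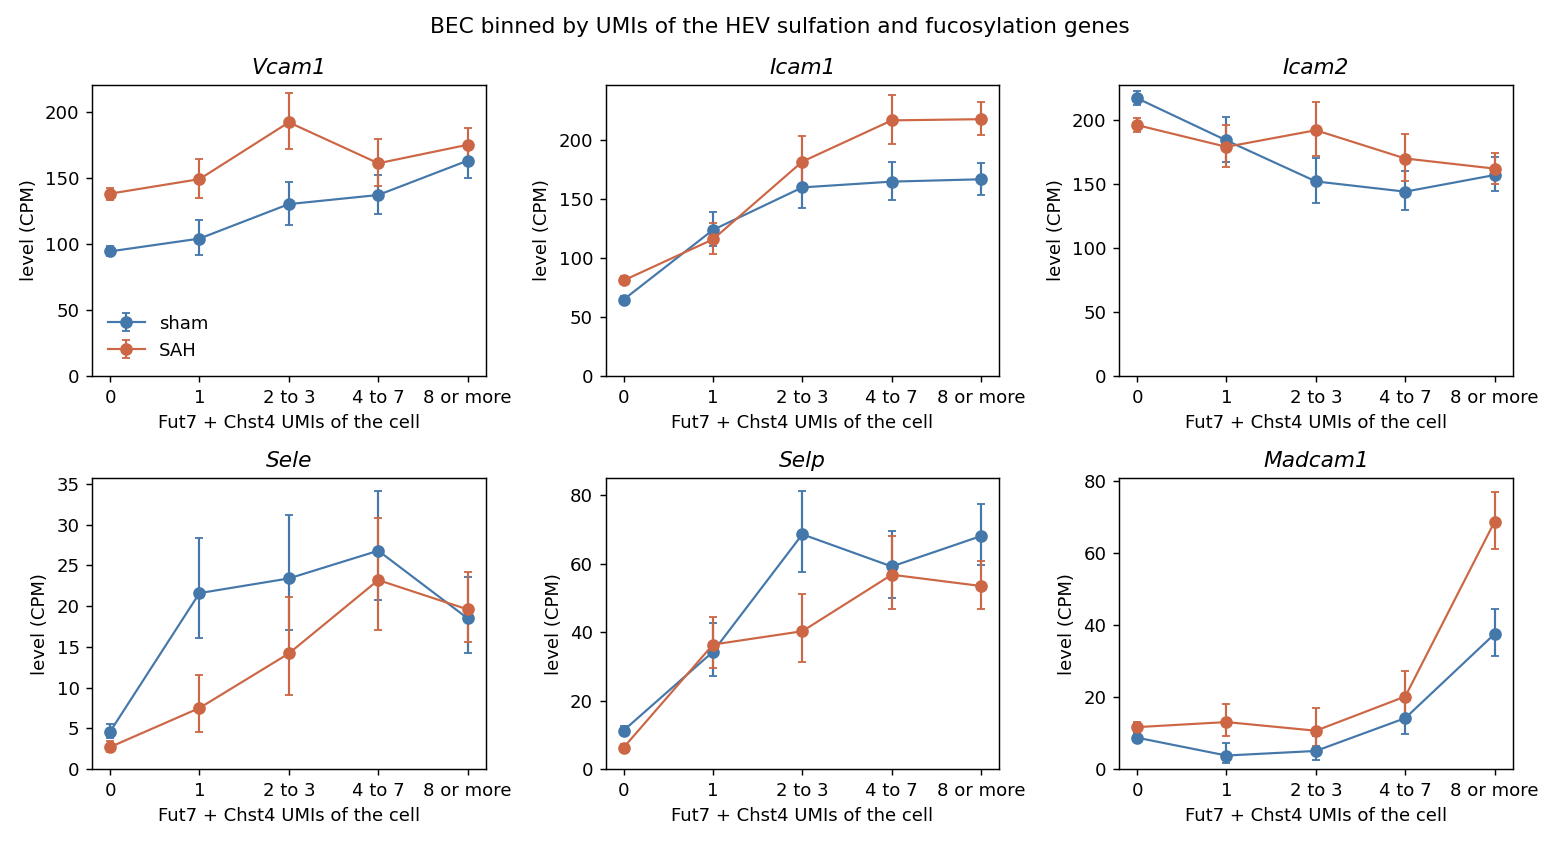
Level of each gene (CPM) in BEC grouped by the Fut7 and Chst4 UMIs of the cell, in the sham (blue) and SAH (red) library. Points are levels of summed UMIs and error bars exact 95% intervals for counting error only; groups of more UMIs hold deeper cells. Madcam1 is highest in the group of at least 8 UMIs (37.6 and 68.8 CPM), while Icam2 is highest in the group of 0 (217 and 196 CPM).

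Cells with 1 of the genes were examined for the others after thinning. In Fut7/Chst4-positive BEC, 11 of 40 sham cells with Sele (27.5%) and 8 of 47 SAH cells (17.0%) had Selp, against 7.73% and 6.13% of cells without Sele. The selectins thus tended to lie in the same cells in each library. Of the Madcam1-positive cells, 1 of 18 sham (5.56% [0.141, 27.3]) and 0 of 46 SAH (exact upper bound 7.71%) had Selp, against 8.52% and 6.81% of the rest, and at these numbers a difference was not detectable. In Coch-type LEC, 76.5% and 73.4% of Madcam1-positive cells had Vcam1, against 61.8% and 64.8% of the rest. At least 3 of the 6 genes were seen in 24.6% and 21.0% of Coch-type LEC and in 3.3% and 5.31% of Fut7/Chst4-positive BEC.

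The genes with the most similar profile were read over 12 points, 6 populations in 2 libraries, which share libraries and gates, among 4641 genes with enough counts. For Icam2 they were S1pr1, a receptor for sphingosine 1-phosphate, Fgd5 and Scarf1 (Pearson r of 0.997, 0.993 and 0.991 on log2(CPM + 1)). S1pr1, like Icam2, was low in stroma (20.8 and 19.7 CPM) and lay between 364 and 457 CPM in the endothelial populations. How far r rests on that contrast was not tested. For Madcam1 they were Sec11c, Nudt17 and Rab20 (0.963, 0.954 and 0.951), and for Vcam1 Cd63, a tetraspanin, Atf5 and Ube2e2 (0.958, 0.954 and 0.945). For Sele they were Ch25h, which makes 25-hydroxycholesterol, Serpinb1a and Ier3 (0.922, 0.911 and 0.91). Selp had Slc25a3, Fam171a1 and Dll1 (0.931, 0.914 and 0.913), and Icam1 had Slc16a9, Sh2b2 and Bace2 (0.928, 0.926 and 0.869). Slc25a3 varied little, between 327 and 499 CPM. Among the 6 genes the closest pair was Vcam1 and Madcam1 (0.775), then Icam2 and Selp (0.697) and Sele and Selp (0.644).

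Other genes of leukocyte traffic were described from 4 lists. Of 22 further endothelial adhesion and transmigration genes with enough UMIs, 1 was higher and 1 lower in BEC, and 3 were higher and 3 lower in LEC. Of all genes, 12.4% were higher and 5.71% lower in BEC, and 9.14% and 6.34% in LEC, which is the background for the counts of all 4 lists. The median log2 fold of the list was 0.00 in BEC and 0.01 in LEC, beside 0.03 and 0.00 for all genes. In BEC, Vwf, which encodes von Willebrand factor and shares its granules with P-selectin, stood at 39.9 and 74.6 CPM (1.87-fold [1.75, 1.99]), and Mcam, a junctional molecule, at 177 and 90.8 CPM (0.513-fold [0.492, 0.535]). In LEC the scavenger and adhesion receptor Stab1 was at 322 and 498 CPM (1.55-fold) and Mcam at 54.0 and 30.8 CPM (0.571-fold). Of the leukocyte counter-receptors 2 of 9 were higher and 1 lower in BEC, and 2 of 7 were higher and 3 lower in LEC, around median log2 folds of -0.27 and -0.14 beside the 0.03 and 0.00 of all genes. Itgb1, the beta chain of VLA-4 and the one of that list abundant in endothelium, was 285 and 275 CPM in BEC and 356 and 380 CPM in LEC.

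Of 23 regulators of the 6 genes, 2 were higher and 0 lower in BEC and 3 higher and 2 lower in LEC, with a median log2 fold of -0.01 in each, beside the same shares and medians of all genes. Nfkbia, the NF-kB inhibitor, stood at 1384 and 998 CPM (0.721-fold) in BEC and 1191 and 774 CPM (0.65-fold) in LEC, and Nfkb2 at 49.9 and 73.1 CPM in BEC (1.46-fold). Klf2, a flow-induced factor, was 1107 and 738 CPM in LEC (0.667-fold), and Il4ra, the receptor chain for interleukin 4, 32.6 and 51.4 CPM (1.57-fold). Of the 6 membrane cytoskeleton partners that anchor ICAMs and VCAM-1, 0 were past 1.5-fold in either population, around median log2 folds of -0.18 in BEC and -0.27 in LEC. Among them Rdx (radixin) was 271 and 342 CPM (1.26-fold) and Msn (moesin) 558 and 417 CPM (0.747-fold) in BEC.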

How the data were processed

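Single-cell libraries of mandibular lymph node stroma, 1 sham and 1 SAH, were made on the Chromium platform. The deposited matrices hold raw UMI counts for each gene and barcode, which the authors made with Cell Ranger 5.0 and STAR on mm10, per the submitters' processing notes, where Seurat 3.0.2 is listed too. Version 5.0.0 stands in the matrix headers. The annotation release and the treatment of introns are not given in the sources used here. No barcode held fewer than 501 UMIs.

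Counts of entries with the same symbol were summed. Kept barcodes had 500 or more detected genes and no more than 10% mitochondrial UMIs; 774 sham and 623 SAH barcodes missed the first limit and 2458 and 2071 the second. Doublets were kept; Scrublet (expected rate 0.1, scanpy 1.11.5) called 5.8% of sham and 7.12% of SAH cells, and leaving them out is an alternative. LEC were split by the most abundant of Ackr4, Coch and Marco, ties and cells with none staying unsplit. UMIs were summed per population and library. Folds have exact conditional binomial and shares exact Clopper-Pearson 95% intervals; intervals and floors cover counting error only. Folds were computed for all genes, and the code was tested on simulated Poisson counts of summed BEC, without variation between cells or libraries. Thinning to 2000 UMIs kept 5792 of 6348 sham and 5874 of 6503 SAH BEC, 2324 of 2364 and 2509 of 2562 LEC, and 1425 of 1532 and 1547 of 1631 stromal cells. Python 3.11.15, numpy 2.4.6, scipy 1.17.1, pandas 2.3.3 and matplotlib 3.10.9 were used.

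The 6 genes, the populations and the gene lists were chosen with earlier results of these data known. Named genes were the 6 members, for each the 3 genes of highest Pearson r over 12 profiles among genes of at least 50 CPM in 1 profile, and examples from the 2 highest and 2 lowest folds of each list at 50 CPM or more. Itgb1 was the 1 counter-receptor at that level. 1 gene of the regulator list is not reported here by name. The fibroblast split, the motifs, the groups by fibroblast UMIs, the Coch to Madcam1 ratio and a BEC gate without Ly6c1 were chosen after values had been seen. Other alternatives changed filters, gates, scaling, cell weights, depth and the fold limit.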

Additional observations from a re-analysis of the deposited data

Results flagged for a closer look

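Madcam1 lay in opposite directions in 2 endothelial populations. Its SAH level over its sham level was 2.03 in BEC with Fut7 or Chst4 UMIs (18.0 CPM in the sham library and 36.6 CPM in the SAH library) and 0.614 in Marco-type LEC (100.3 and 61.6 CPM). With 1 library per group, the difference between these folds was not tested. The Marco-type cells rested on 117 sham and 203 SAH Madcam1 UMIs, and 10 cells held 55.6% of the former and 44.3% of the latter. The list of 7 fibroblast genes summed to 2275 and 1101 CPM in Marco-type LEC and to 624 and 1055 CPM in these BEC, and its part in either fold was not tested.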

How the results depend on the processing

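The count of members at least 1.5-fold higher in BEC, 1 as reported, was 0 at a limit of 5% mitochondrial UMIs, 0 without mixed cells (endothelial cells with at least 3 fibroblast UMIs, and cells with Ptprc), 2 at the lower of the alternative fold limits and 0 at the higher (2-fold). The count lower in BEC, 0 as reported, was 1 without the 10 cells of most UMIs and 2 at the lower fold limit. The count lower in LEC, 2 as reported, was 1 without mixed cells, 1 with cells weighted equally, 0 with cells thinned to 2000 UMIs, 1 without the 10 cells of most UMIs and 1 at the 2-fold limit. The count higher in stroma, 0 as reported, was 2 with thinned cells, 1 without the 10 cells of most UMIs and 2 at the lower fold limit, and the count lower there, 1 as reported, was 0 at 5% mitochondrial UMIs, 0 with cells weighted equally, 0 with thinned cells and 0 without the 10 cells of most UMIs. The Selp fold in unsplit LEC was 0.598 as reported and 1.75 with thinned cells. The Madcam1 fold in Fut7/Chst4-positive BEC ranged from 1.55 to 3.53 over 11 alternatives, that of Selp in Fut7/Chst4-negative BEC from 0.533 to 0.691 and that of Vcam1 there from 1.05 to 1.49. Beyond the values given, the causes of these shifts were not tested. Dividing by the median fold of all genes moved log2 folds by at most 0.07. No paired analysis was possible because each group is 1 library, and for the same reason no library could be left out. Populations of under 20 UMIs of a gene limit Sele and Selp most.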
